A study of Homo sapiens with 6 samples.

Results

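Open chromatin was examined at the promoters of 8 genes of the NF-κB pathway in K562, an established human leukaemia line. The genes were the subunits NFKB1, NFKB2, REL, RELA and RELB, the inhibitors NFKBIA and TNFAIP3, and the target BIRC3. Members were the called intervals within 2 kb of each gene's start site on hg19. There were 27 such intervals among the 48967 intervals of the 6 peak lists, at 11 of 17466 regions made by merging overlapping intervals. The assay was ATAC-seq, where a transposase cuts and tags DNA that is not packed away. The groups were K562 overexpressing SLFN11 with the E669Q substitution, K562 overexpressing wild-type SLFN11 (WT) and K562 with a vector control. Each line received 1000 nM camptothecin (CPT) for 4 h, or DMSO for a time the labels do not give, with 1 library per group. SLFN11 acts at stressed replication forks, E669Q lies in its ATPase domain, and CPT traps topoisomerase I on DNA. Promoters of the overexpression constructs, and whether each line is a clone or a pool, are not given in the labels. The labels call K562 a lymphoblast. Markers of that cell type were not placed on hg19 here, so the label was not tested.

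NF-κB proteins are dimeric transcription factors that IκB proteins hold in the cytoplasm. Signals such as tumour necrosis factor, and also DNA damage, lead to destruction of IκB, and the freed dimers bind κB motifs in the DNA of their target genes. Several genes of the pathway are themselves such targets, among them NFKBIA, TNFAIP3 and BIRC3, so that the pathway feeds back on itself.

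The κB motif is shown here in the promoters of 5 of the genes, because it is the sequence that NF-κB dimers bind in their target genes. The sequences are the 250 bases before a RefSeq start on GRCh38.p14, a build other than that of the peak lists. No interval was therefore placed on them. NFKB2 had 3 such windows, 2 of them with a match, and the one shown is that with the most matches. REL was the gene called in most libraries, NFKB2 the one missing from both E669Q lists, and TNFAIP3 the one with the largest pileups. NFKBIA and BIRC3 are the feedback inhibitor and the target called in 1 list only. Capitals mark matches to the 10-base NF-κB consensus on either strand, and overlapping matches run together.
REL, chr2:60881324-60881573, plus strand: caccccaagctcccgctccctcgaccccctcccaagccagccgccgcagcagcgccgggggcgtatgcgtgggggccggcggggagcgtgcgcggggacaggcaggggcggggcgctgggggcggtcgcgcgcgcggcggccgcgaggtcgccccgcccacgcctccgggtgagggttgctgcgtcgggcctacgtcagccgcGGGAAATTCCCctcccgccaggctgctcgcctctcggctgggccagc
NFKB2, chr10:102394328-102394577, plus strand: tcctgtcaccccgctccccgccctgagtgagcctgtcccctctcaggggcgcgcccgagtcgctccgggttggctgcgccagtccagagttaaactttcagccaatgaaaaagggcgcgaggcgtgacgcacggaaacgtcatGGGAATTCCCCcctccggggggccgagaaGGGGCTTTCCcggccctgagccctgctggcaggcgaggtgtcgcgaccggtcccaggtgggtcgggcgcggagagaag
TNFAIP3, chr6:137867009-137867258, plus strand: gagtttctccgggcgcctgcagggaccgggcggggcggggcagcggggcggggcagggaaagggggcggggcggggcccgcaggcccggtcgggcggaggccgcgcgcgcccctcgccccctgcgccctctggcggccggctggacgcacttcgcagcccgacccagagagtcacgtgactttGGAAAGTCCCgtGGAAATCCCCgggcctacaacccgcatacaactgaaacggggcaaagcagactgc
NFKBIA, chr14:35404750-35404999, minus strand: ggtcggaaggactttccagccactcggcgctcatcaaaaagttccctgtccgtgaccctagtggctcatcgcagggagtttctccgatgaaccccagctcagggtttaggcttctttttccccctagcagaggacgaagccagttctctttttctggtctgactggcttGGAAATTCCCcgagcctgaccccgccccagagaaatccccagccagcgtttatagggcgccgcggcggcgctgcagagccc
BIRC3, chr11:102317234-102317483, plus strand: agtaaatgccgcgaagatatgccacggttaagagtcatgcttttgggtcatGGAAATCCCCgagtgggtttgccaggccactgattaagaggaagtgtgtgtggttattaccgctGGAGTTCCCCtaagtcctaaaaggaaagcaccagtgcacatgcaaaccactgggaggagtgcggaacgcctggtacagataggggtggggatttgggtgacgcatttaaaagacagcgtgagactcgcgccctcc
RefSeq windows were found for 7 of the 8 genes, and RELB had none. A match was present in at least 1 window of 6 of these 7 genes (NFKB1, NFKB2, REL, NFKBIA, TNFAIP3 and BIRC3), and in neither window of RELA. Over all RefSeq promoters of the same length, 9.96% of 35116 windows and 11.8% of 27305 genes had a match. A match is a description of the letters and not evidence of binding. The windows differed in base composition, with 79.6% G and C in REL, 74.0% in TNFAIP3, 68.4% in NFKB2, 59.2% in NFKBIA and 52.4% in BIRC3, against a median of 58.0% over all windows.

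A called interval lay near 1 to 7 of the 8 promoters in each library. Of 48 pairs of a gene and a library, 23 had a called interval. No gene was called in all 6 libraries and each gene was called in at least 1. An interval lay near 7 of the 8 genes in E669Q with CPT and 5 in E669Q with DMSO. It lay near 2 genes in WT with CPT and 5 in WT with DMSO, and near 3 in vector with CPT and 1 in vector with DMSO. The lists held 12337, 8365, 5562, 11651, 5806 and 5246 intervals in the same order of libraries. Of the 11 promoter regions, 5 were called in 1 list alone and 0 in all 6, against 38.1% and 12.3% of the 17466 regions of the series, so that the share in 1 list alone was near that of all regions.

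These numbers went with the depth of the libraries. Depth relative to vector with DMSO, recovered from the deposited fold and p-values, was 2.22 in E669Q with CPT, 1.33 in E669Q with DMSO, 1.09 in WT with CPT, 1.72 in WT with DMSO and 1.09 in vector with CPT. The deepest library thus called the most of these genes and the shallowest the fewest. After summit pileup (the number of fragments over the summit) and local background were scaled to the shallowest depth, the number of genes called was 3 in E669Q with CPT, 3 in E669Q with DMSO, 2 in WT with CPT, 3 in WT with DMSO, 2 in vector with CPT and 1 in vector with DMSO. The scaled lists held 6016, 7014, 5158, 8082, 5600 and 5246 intervals in the same order of libraries. The genes that dropped out in E669Q with CPT were NFKB1, RELA, NFKBIA and BIRC3. REL was called in 5 libraries after scaling, and TNFAIP3 in 4.

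**Figure D1:**
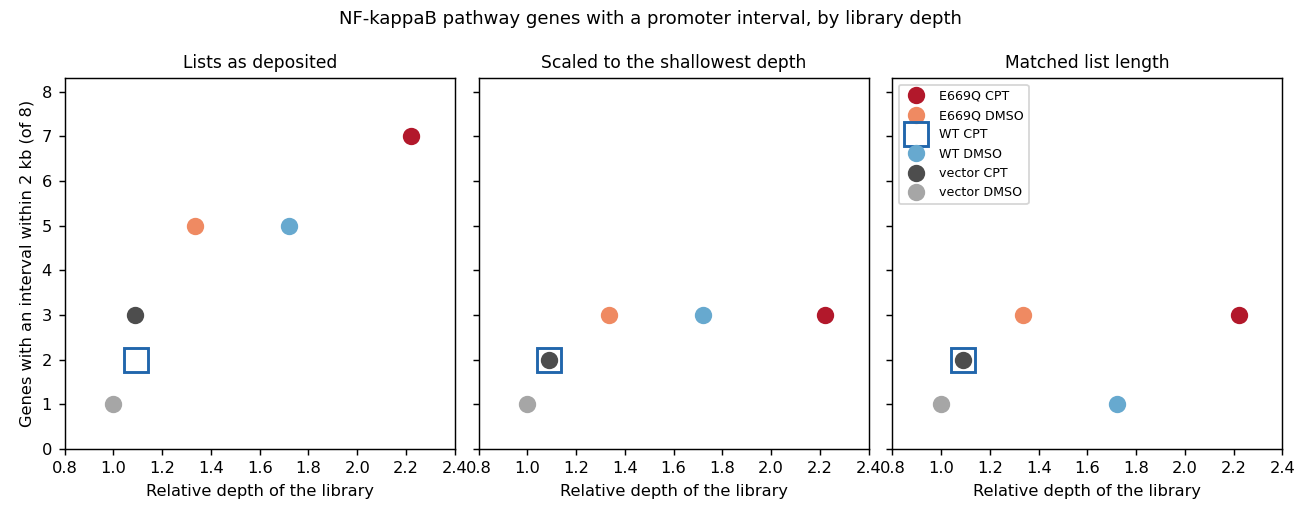
Number of the 8 genes with an interval within 2 kb of the start site, on the vertical axis, against relative depth, with 1 point per library; the open square is WT with CPT, which surrounds vector with CPT in the middle and right panels. In the lists as deposited the number is 7 in the deepest library and 1 in the shallowest, and after scaling to the shallowest depth it is 3 and 1.

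Most of the promoter intervals stood low in their own list. Of the 27 intervals, 21 lay at or below the median −log10 p of their list and 6 above it, and the median percentile was 29.7, where 50 is the middle of a list. The median authors' fold enrichment, the ratio of the summit to the local background, was 5.38 for promoter intervals in E669Q with CPT, against 6.05 over all intervals of that list. It was 5.72 against 6.08 in E669Q with DMSO, 5.24 against 5.91 in WT with CPT and 4.78 against 6.17 in WT with DMSO. In the vector line it was 4.56 against 6.13 with CPT and 5.29 against 6.03 with DMSO. These medians rest on 9, 6, 2, 6, 3 and 1 promoter intervals in the order given, so the last is a single value. The 27 intervals lay at 11 regions and are not independent of each other. Summit pileups ran from 5 to 26 fragments. By position, 11 intervals covered the start site itself and 21 lay within 500 bp of it.

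**Figure D2:**
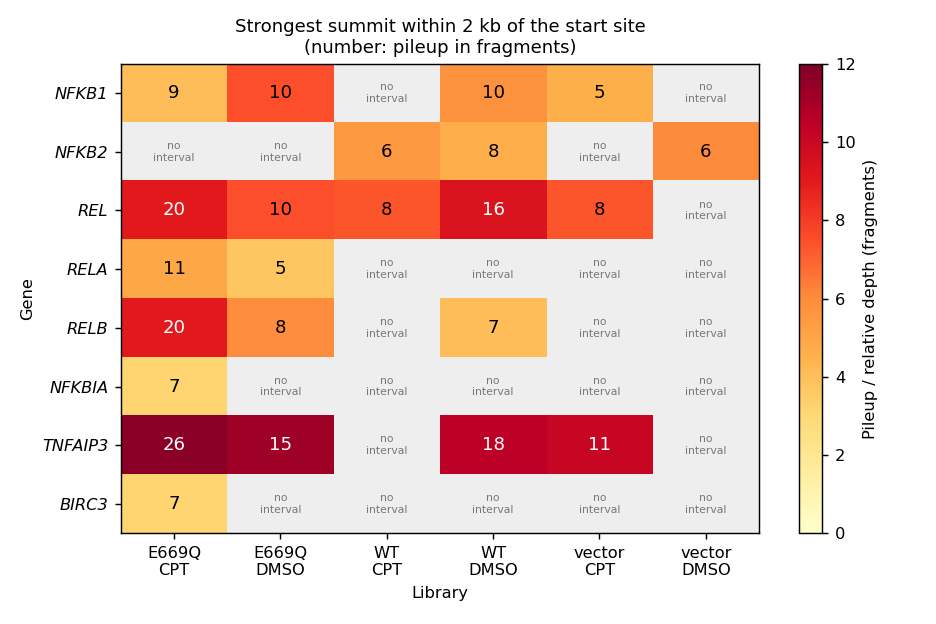
Summit pileup at the strongest interval within 2 kb of each start site, with genes down the page and libraries across. The printed number is the pileup in fragments, the colour is that number divided by relative depth, and grey cells had no interval. TNFAIP3 has the darkest cells, at 26, 15, 18 and 11 fragments, and NFKBIA and BIRC3 are filled in E669Q with CPT alone.

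REL, which encodes the subunit c-Rel, was the most widely called of the genes. Its interval was present in 5 libraries and absent from vector with DMSO. Of 3908 regions called in at least 5 lists, 16.2% were missing from that list alone. All 5 intervals covered the start site (chromosome 2, 61108752) and together spanned 61108333 to 61108981. The authors' fold was 8.02 in E669Q with CPT, 6.39 in E669Q with DMSO, 5.70 in WT with CPT, 7.24 in WT with DMSO and 5.48 in vector with CPT. The −log10 q was 11.9, 5.69, 4.14, 9.05 and 3.88 in the same 5 libraries. The interval stood above the middle of its list in both E669Q libraries and in WT with DMSO, and below it in WT with CPT and vector with CPT. In E669Q with CPT it was 543 bp wide and held 3 summits.

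After division by depth, REL pileups differed by less than their counting error. The summit held 20 fragments in E669Q with CPT, 10 in E669Q with DMSO, 8 in WT with CPT, 16 in WT with DMSO and 8 in vector with CPT. The strongest summits lay at −166, 3, 13, −37 and −141 bp of the start site in the same order. Divided by relative depth the pileups became 9.01, 7.49, 7.33, 9.29 and 7.36 fragments. In the E669Q line the CPT over DMSO ratio of depth-divided pileups was 1.20 (exact 95% interval 0.537 to 2.88, counting error only). In the WT line it was 0.789 (0.292 to 1.95). At nearly equal depth the WT over vector ratio with CPT was 0.997 (0.326 to 3.05). A call in vector with DMSO needed about 6 fragments at the background this locus had elsewhere, which is also 6.0 after division by depth and close under the values of the other libraries. Limits of this kind are approximate, because they use the background of other libraries. Of the 23 called pairs of a gene and a library, 3 held 1 or 2 fragments fewer than their computed limit (NFKB1 in vector with CPT, RELA in E669Q with DMSO and RELB in WT with DMSO).

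NFKB1 encodes a precursor that is processed into a DNA-binding subunit of the canonical pathway. It had intervals in 4 libraries and none in WT with CPT or vector with DMSO. The region at the start site (chromosome 4, 103422486) ran from −186 to 402 bp and was called in both E669Q libraries, WT with DMSO and vector with CPT. This pattern, which TNFAIP3 shared, was that of 2.36% of all regions. In E669Q with CPT the region held separate intervals, from −178 to 48 bp and from 206 to 402 bp. The interval of WT with DMSO, from 0 to 384 bp, overlapped both. The strongest summit lay at −43 bp with CPT and −16 bp with DMSO in E669Q. It lay at 195 bp in WT with DMSO and −160 bp in vector with CPT. This summit held 9 fragments in E669Q with CPT and 9 in E669Q with DMSO. It held 10 in WT with DMSO and 5 in vector with CPT. Divided by depth these were 4.05, 6.74, 5.81 and 4.60. A call needed about 6 fragments in WT with CPT and in vector with DMSO, or 5.50 and 6.0 after division by depth. These limits lie above the values of E669Q with CPT and vector with CPT, and the limit of 6.0 also above that of WT with DMSO. The depth-divided ratio of CPT over DMSO in the E669Q line was 0.601 (0.211 to 1.71). The vector interval had a −log10 q of 2.19, near the lowest value that entered the lists. A second region, from 624 to 1016 bp downstream, was called in the E669Q line alone, with 7 fragments with CPT and 10 with DMSO. Of all regions, 3.26% were called in both E669Q lists and in no other. The weakest interval of all 27 belonged to this second region, in E669Q with CPT, with a −log10 q of 2.04.

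NFKB2, the precursor that serves the non-canonical pathway, went against the order of depth. Its promoter interval was called in WT with CPT, WT with DMSO and vector with DMSO. It was called in neither E669Q library, although E669Q with CPT was the deepest, and not in vector with CPT. The region lay from −396 to −161 bp of the start site (chromosome 10, 104153939 to 104154174). The summit held 6 fragments in WT with CPT, 8 in WT with DMSO and 6 in vector with DMSO, or 5.50, 4.65 and 6.0 after division by depth. The WT ratio of CPT over DMSO was 1.18 (0.339 to 3.89). Of 2876 regions called in both WT lists and in vector with DMSO, 1.63% were absent from both E669Q lists, whether or not vector with CPT called them. These were regions of any strength. The NFKB2 interval ranked low, at percentile 15.1 in WT with CPT, 20.8 in WT with DMSO and 30.0 in vector with DMSO. The share among regions as weak as this was not computed. A call in E669Q with CPT needed about 7 fragments and in E669Q with DMSO about 6, or 3.15 and 4.50 after division by depth. Both limits lie under the 3 called values and inside their counting intervals (the lowest bound was 2.01 and the highest 13.1). In vector with CPT a call needed about 6 fragments, or 5.52 after division by depth, which lies above the WT values. The difference between the lines was not tested. This gene was picked out after its values were seen.

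RELA encodes the main transactivating subunit of canonical NF-κB. It had a separate interval in each E669Q library and none in the other lines. The start site is at 65430443 on chromosome 11, on the minus strand. The interval ran from −130 to 40 bp in E669Q with CPT, with 11 fragments, a fold of 5.93 and a −log10 q of 5.54. In E669Q with DMSO another interval ran from −326 to −167 bp, with 5 fragments, a fold of 4.20 and a −log10 q of 2.11. The intervals of the 2 E669Q libraries did not overlap, so RELA counted as called in both without a shared region. Of all regions, 38.1% were called in 1 list alone, and 14.8% in E669Q with CPT alone. The share in E669Q with DMSO alone was not computed. Divided by depth the pileup was 4.95 in E669Q with CPT and 3.75 in E669Q with DMSO. The approximate limits for a call were 4.58 in WT with CPT, 3.48 in WT with DMSO, 5.52 in vector with CPT and 5.0 in vector with DMSO. The value of E669Q with DMSO lies under its own computed limit of 4.50, and under 3 of these 4.

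RELB, the partner of the NFKB2 product, was called in 3 libraries, at 461 to 747 bp downstream of the start site (chromosome 19, 45505173 to 45505459). The direction assumes the plus strand for this gene, taken from general knowledge and not from the files. Its summits lay at 600 bp in E669Q with CPT, 593 bp in E669Q with DMSO and 602 bp in WT with DMSO. Of 5831 regions called in these 3 libraries, 13.9% were in no other list. The pileup was 20 fragments in E669Q with CPT, 8 in E669Q with DMSO and 7 in WT with DMSO, or 9.01, 5.99 and 4.07 after division by depth. The −log10 q was 11.2, 2.73 and 2.39. The interval ranked at the 84.1 percentile of its list in E669Q with CPT, at 9.73 in E669Q with DMSO and at 4.05 in WT with DMSO. The E669Q ratio of CPT over DMSO, 1.50, was the highest of the 18 ratios computed, and its interval of 0.634 to 3.95 included 1. With DMSO the E669Q over WT ratio was 1.47 (0.467 to 4.78). In the other 3 libraries the computed limit was 7 fragments, or 6.42 to 7.0 after division by depth. The same calculation gave 9 fragments, or 5.23, for WT with DMSO, where the gene was called with 7, so the limit failed there.

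**Figure D3:**
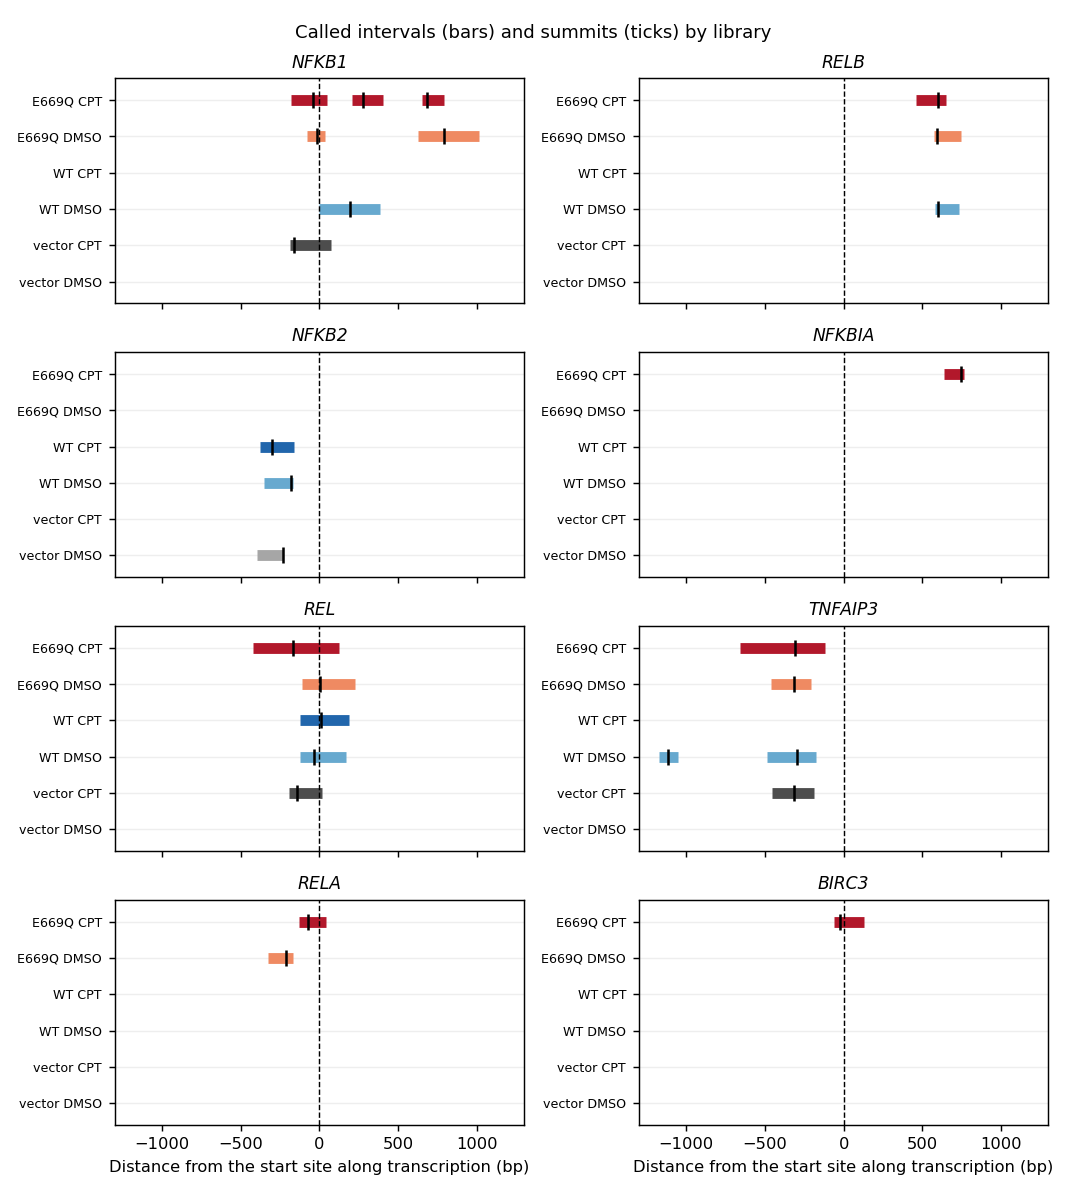
Called intervals within 2 kb of each start site, as bars, with the strongest summit of each as a tick, along the distance from the start site in the direction of transcription; each row is a library. REL and BIRC3 intervals cover the start site, NFKB2 and TNFAIP3 intervals lie upstream, and RELB (plus strand assumed) and NFKBIA intervals lie downstream.

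TNFAIP3 encodes a ubiquitin-editing enzyme that shuts NF-κB signalling off again, and it had the largest summit pileup of the 8 genes. The region lay upstream, from −659 to −121 bp of the start site (chromosome 6, 138187922 to 138188460). It was called in both E669Q libraries, WT with DMSO and vector with CPT, and not in WT with CPT or vector with DMSO. Summits fell at −308 bp in E669Q with CPT, −314 bp in E669Q with DMSO, −297 bp in WT with DMSO and −314 bp in vector with CPT. The pileup was 26, 15, 18 and 11 fragments in these libraries. Divided by depth it was 11.7, 11.2, 10.5 and 10.1 fragments, so the 4 libraries differed by less than their counting intervals. The E669Q ratio of CPT over DMSO was 1.04 (0.532 to 2.12). The E669Q over vector ratio with CPT was 1.16 (0.553 to 2.60).

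The local background around TNFAIP3 was also high. It was 5.47 to 8.32 times the lowest background of the library over its promoter intervals, while the median of all intervals was 2.06 to 2.56 times the lowest in the 6 libraries. A high background raises the pileup that a call needs. In WT with CPT about 10 fragments were needed, or 9.17 after division by depth, and in vector with DMSO about 9. Both limits lie under the values of the 4 libraries with a call and inside their counting intervals, and whether the pileup was lower in WT with CPT was not tested. BIRC3 was the opposite case, with a background equal to the lowest of its library.

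**Figure D4:**
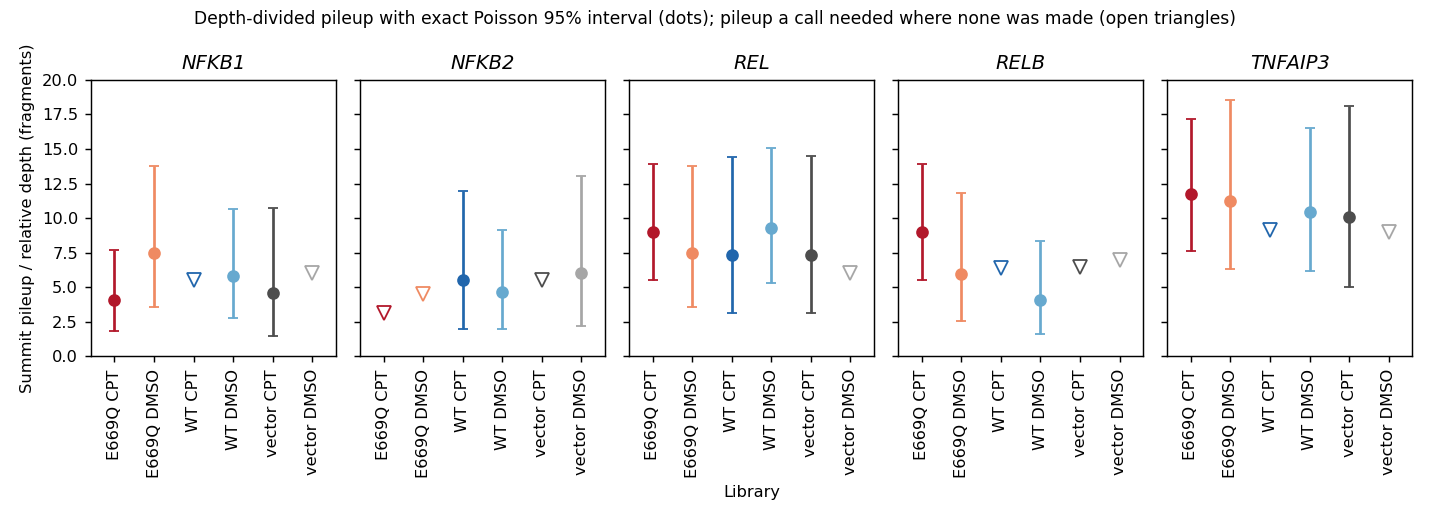
Summit pileup divided by relative depth at the strongest promoter interval, for the 5 genes called in at least 3 libraries; bars are exact Poisson 95% intervals and open triangles give the pileup that a call needed in libraries without one. For NFKB1 in E669Q with DMSO the strongest interval is the one downstream. REL lies between 7.33 and 9.29 and TNFAIP3 between 10.1 and 11.7, and the intervals of each gene overlap.

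NFKBIA encodes IκBα, the inhibitor that is destroyed when the canonical pathway fires. Its start site (chromosome 14, 35873960) had no interval of its own in any library. The nearest lay from 635 to 764 bp downstream and was called in E669Q with CPT alone, with 7 fragments, a fold of 4.36 and a −log10 q of 2.55. Divided by depth this was 3.15 fragments (exact Poisson 95% interval 1.27 to 6.50). The approximate limits for a call in the other 5 libraries were 3.48 to 5.0, above that value and inside its counting interval.

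BIRC3 encodes an inhibitor of apoptosis and is a common readout of NF-κB activity. Its interval was likewise called in E669Q with CPT alone, from −61 to 130 bp of the start site (chromosome 11, 102188181), with 7 fragments, a fold of 5.38 and a −log10 q of 4.05. Divided by depth it was also 3.15 (1.27 to 6.50). E669Q with DMSO, WT with CPT and both vector libraries needed 3.67 to 4.60 for a call, above that size, and WT with DMSO about 5 fragments, slightly below it. Of all regions, 14.8% were called in E669Q with CPT and in no other list.

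In the lists as deposited, the genes gained and lost with CPT differed between the 3 lines, and several of these changes ended when the lists were matched in length or scaled in depth. In the E669Q line NFKBIA and BIRC3 were gained and no gene was lost, and 4 of 9 promoter intervals had no overlap in the DMSO list, against 45.2% of all intervals of that CPT list. In the other direction 1 of 6 DMSO intervals had no overlap in the CPT list, against 19.0% of all. In the WT line NFKB1, RELB and TNFAIP3 were lost and none was gained. There 0 of 2 CPT intervals were new, against 15.1% of all, and 4 of 6 DMSO intervals were gone, against 59.5% of all. In the vector line NFKB1, REL and TNFAIP3 were gained and NFKB2 was lost. There 3 of 3 CPT intervals were new, against 45.1% of all, and 1 of 1 DMSO interval was gone, against 39.5% of all. With so few members, shares of this kind do not separate them from the rest of the lists. In lists cut to the length of the shortest, E669Q gained RELB and lost NFKB1, WT gained NFKB2 and lost none, which turned its direction, and vector gained REL and TNFAIP3 and lost NFKB2. Scaled to the shallowest depth, E669Q and vector gained and lost the same genes as in the cut lists, and WT gained NFKB2 and lost NFKB1 and TNFAIP3. NFKBIA and BIRC3 were called in no library under either setting. Over the 3 lines the number of genes called averaged 4.0 with CPT and 3.67 with DMSO, a mean difference of 0.333 ± 2.89 (SD of the 3 differences) that was positive in 2 of 3 lines. The exact permutation test gave a two-sided p of 1.0, where 0.1 is the smallest that 3 against 3 libraries allow. It ignored the pairing by line and took lines that differ in SLFN11 as replicates, so it says nothing about any single line.

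Between the lines with CPT, E669Q and WT shared REL alone, with 7 and 2 genes called. Of the 9 promoter intervals of E669Q, 8 had no overlap in the WT list, against 61.7% of all, and 1 of 2 WT intervals, NFKB2, had none in E669Q, against 15.2% of all. E669Q and vector shared NFKB1, REL and TNFAIP3, with 6 of 9 E669Q intervals outside the vector list (60.5% of all) and 0 of 3 the other way (15.7%). WT and vector, at the same depth of 1.09, had 2 and 3 genes called and shared REL. There 1 of 2 WT intervals was outside the vector list (42.5% of all) and 2 of 3 vector intervals were outside the WT list (44.8%).

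With DMSO, E669Q and WT each had 5 genes called and shared NFKB1, REL, RELB and TNFAIP3. E669Q alone had RELA, and WT alone had NFKB2. Of 6 promoter intervals of each, 2 were outside the other list, against 23.4% of all E669Q and 45.3% of all WT intervals. In vector with DMSO only NFKB2 was called, which WT shared and E669Q did not. Accordingly 6 of 6 E669Q intervals (56.1% of all) and 5 of 6 WT intervals (62.0%) were outside the vector list. In the reverse direction the vector interval was outside the E669Q list (29.9% of all) and inside the WT list (15.4% outside).

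Where a region was called on both sides of a comparison, the pileups at its strongest summit in each library could be set side by side. This gave 18 ratios over the 3 comparisons of CPT with DMSO and the 6 between lines. The 2 summits of a ratio were not always at the same place. For NFKB1 with DMSO they lay at −16 bp in E669Q and 195 bp in WT. The ratios ran from 0.421, at the downstream NFKB1 region in E669Q with CPT over DMSO, to 1.50 at RELB. The 95% interval of each of the 18 included 1. These intervals cover counting error only, with 1 library per group, and values exist only where an interval was called.

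Between 2 and 20 kb from the start sites there were 4 further intervals at 3 sites. At TNFAIP3 a site from −4065 to −3881 bp was called in both vector libraries and in none of the 4 SLFN11 libraries. It held 11 fragments with CPT and 11 with DMSO, with folds of 4.33 and 4.56, and a depth-divided ratio of 0.920 (0.362 to 2.34). Both calls were weak, with a −log10 q of 2.94 with CPT and 3.22 with DMSO, at percentiles 13.6 and 21.3 of their lists. The local background was 7.29 and 7.46 times the lowest of the library. The pileup that a call needed here in the SLFN11 libraries was not computed. Of 3249 regions of any strength called in both vector lists, 0.646% were absent from all 4 SLFN11 lists. The share among regions as weak as this site was not computed. This site was picked out after its values were seen. At NFKB2 an interval from 4823 to 4972 bp downstream was called in E669Q with DMSO alone, with a fold of 4.47. At RELA an interval from 9902 to 10362 bp downstream was likewise called in E669Q with DMSO alone, with a fold of 5.47. Of all regions, 38.1% were called in 1 list alone. The farthest interval inside the 2 kb limit was at TNFAIP3, from −1169 to −1053 bp in WT with DMSO, with a fold of 3.47, and the nearest outside it was the site at −3881 bp.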

How the data were processed

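The 6 libraries each came with 1 peak list, and groups were taken from the labels. Per the submitters' processing notes, the tools included MACS2 2.1.2, Picard 2.9.2, SAMtools 1.8, Bowtie2 2.2.6 and Trimmomatic 0.39, with hg19 as build. Their roles, read shifting, duplicate handling and sequencing depth are not given in the sources used here. Each deposited score is 10 times the −log10 q without its decimals. The authors' fold enrichment is a ratio of the summit to local background, and the deposited −log10 p and −log10 q belong to each summit. No deposited q-value exceeds 0.01. Start sites on hg19 came with the definition of the gene set, which was chosen, like the lists and tests, with earlier results of these data known. All 8 genes were described. The other pathway genes planned and the cell type markers were not analysed here, since no hg19 annotation was used.

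Fold and −log10 p were solved for a whole summit pileup and a background (MACS2's formula, pseudocount 1, tolerance 0.001), which succeeded for 98.6% to 99.3% of entries. The lowest background divided by the step of 1 fragment in 10 kb gave depth. Ratios of pileups carry conditional exact binomial 95% intervals and pileups exact Poisson ones. The pileup that a call needed was computed at the gene's median background in the libraries that called it, and is approximate. Intervals sharing at least 1 bp overlap. With 1 library per group, a group has no replicate check. The numbers of genes called with CPT and with DMSO were compared over the 3 lines by an exact two-sided permutation test, chosen after the data were seen. It did not use the pairing by line. The recovery was tested on simulated data. Depth limits each value to counts of 5 to 26 fragments. Software was matplotlib 3.10.9, scipy 1.17.1, pandas 2.3.3, numpy 2.4.6 and Python 3.11.15.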

Additional observations from a re-analysis of the deposited data

Results flagged for a closer look

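The number of promoter-called genes gained minus lost with CPT differed in sign between the lines in the lists as deposited. It was 2 in the E669Q line, −3 in the WT line and 2 in the vector line. In lists cut to equal length it was 0 in E669Q, 1 in WT and 1 in vector, with no difference in sign. After scaling to the shallowest depth it was 0, −1 and 1, and at −log10 q of at least 5 it was 1, −3 and 0. The relative depth of the CPT and DMSO libraries moved the same way, at 2.22 and 1.33 in E669Q, 1.09 and 1.72 in WT, and 1.09 and 1.00 in vector. With 1 library in each group, this difference between lines was not tested.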

How the results depend on the processing

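Moving the limit to 1 kb, or asking for the summit within 2 kb, changed none of the numbers of called genes in the 6 libraries and none of the 3 differences with CPT. Within 5 kb E669Q with DMSO had 6 genes and vector with DMSO 2, and the difference with CPT was 1 in E669Q and 1 in vector. At −log10 q of at least 5 the genes called were 4 in E669Q with CPT and 3 in E669Q with DMSO. They were 0 in WT with CPT, 3 in WT with DMSO, and 0 in vector with CPT and with DMSO. At this limit the lists kept 7806, 4581, 2532, 7232, 2974 and 2552 intervals in the same order of libraries. The differences were 1 in E669Q, −3 in WT, where NFKB1, REL and TNFAIP3 were lost, and 0 in vector. Intervals within 20 kb numbered 4, 3, 0, 3, 0 and 0 in the same library order. In lists cut to 5246 intervals the genes called were 3 in E669Q with CPT, 3 in E669Q with DMSO and 1 in WT with DMSO; the differences were 0 in E669Q, 1 in WT, which turned the direction, and 1 in vector; intervals within 20 kb were 3, 3 and 1 in those 3 libraries. Scaled to the shallowest depth the genes called were 3 in E669Q with CPT, 3 in E669Q with DMSO and 3 in WT with DMSO; the differences were 0 in E669Q, −1 in WT and 1 in vector; intervals within 20 kb were 3, 5 and 3. In the cut and in the scaled lists vector with CPT had 2 genes and 3 intervals within 20 kb, against 3 and 4 as deposited. Matching and scaling remove the weaker intervals of the deeper lists by construction. With the line as a replicate block, an alternative chosen after the data were seen, the mean difference of CPT and DMSO in genes called was the same 0.333, with an exact two-sided permutation p of 1.0, where 0.25 is the smallest that 3 pairs allow. Over the 6 other settings this mean ran from −0.667 to 0.667, and the blocked exact permutation p from 0.5 to 1.0. With summits of 5 to 26 fragments, ratios between libraries carry wide counting intervals.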
